A study of Mus musculus with 24 samples.

Results

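Rtp4, Tap1 and 7 other genes that interferons switch on (Irf7, Ifit1, Ifit3, Stat2, Psmb8, Psmb9 and Bst2) were described in mouse gastrocnemius, the large calf muscle. The 9 genes were taken by name from the probes of 24 whole-genome arrays, which carried 10 probes for them. A signal filter, set at an average of at least 2 times the local background in both dyes, left 8 of these probes and 7 of the genes, among 15958 probes and 10701 named genes that passed it on the arrays. Irf7 and Ifit1 did not pass and are described apart. The set was selected on a measured value, the low log2 ratio of Rtp4 in cHF+F muscle against cHF, so the values of the 9 genes in cHF+F against cHF are a description and carry no test.

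All mice were male C57BL/6N and were put on their diet at 3 months of age for 8 weeks. The control high-fat diet (cHF) held 35% lipid by weight, mainly corn oil. In cHF+F, 15% of the lipid was replaced by a concentrate of long-chain n-3 polyunsaturated fatty acids (n-3 LC-PUFA) with 46% DHA and 14% EPA, and cHF+ROSI held 10 mg rosiglitazone, an activator of the nuclear receptor PPARγ, per kg diet. Every mouse, controls included, was fasted for 10 h in the light phase, re-fed chow overnight and killed the next morning, so the values belong to re-fed muscle. Each group had 8 mice, housed in pairs in cages that the labels do not give, so that mice of a cage could not be treated together in the tests.

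Each mouse's RNA carried the dye Cy5 and was set on its own array against 1 Cy3 pool made from all mice, including a group on a higher rosiglitazone dose that is not analysed here. The value used throughout is the log2 ratio of Cy5 to Cy3, and a difference of group means on this scale is called a log2 change. Between 30.4% and 91.1% of the Cy5 spots were well above background, with cHF mouse 3 the dimmest and cHF+ROSI mouse 4 the brightest array, and the other 22 arrays lay between 41.5% and 61.3%. The 8 slides each held 1 mouse of each group, in the same place on every slide, so slide and diet can be told apart but place and diet cannot. All 9 skeletal muscle marker genes passed the signal filter and were well above background on all 24 arrays. No probe passed an adjusted p of 0.05 in any of the 3 comparisons of diets (limma with Benjamini-Hochberg adjustment over 15958 probes), which is 0.0% of the probes in each.

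Interferons bind receptors that activate JAK kinases, which phosphorylate STAT2. STAT2 enters a complex with IRF9 that binds the interferon-stimulated response element (ISRE) before antiviral genes, and interferon-γ acts through a second element, GAS. IRF7 is induced by this route and raises interferon production further, and the antiviral products include the IFIT proteins, which bind foreign RNA, and BST2 (tetherin), which holds budding virus at the cell surface. TAP1 is a subunit of the pump that carries peptides to MHC class I molecules, and PSMB8 and PSMB9 replace constitutive catalytic subunits to form the immunoproteasome, which cuts such peptides. RTP4 is a chaperone of G protein-coupled receptors that interferon also induces. Resident macrophages, vessel cells and muscle fibres can all respond to interferon, and in whole muscle a change in the number of cells of a type cannot be told from a change in the RNA each cell holds.

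Promoter windows of 250 bases before to 50 bases after the start were at hand for 8 of the 9 genes (RefSeq, build GRCm38.p6). The ISRE core, searched as GAAANNGAAA or its reverse complement TTTCNNTTTC, was present in 4 of the 8 windows (Ifit1, Ifit3, Stat2 and Bst2), against 3.44% of all 32851 windows. Ifit1 and Ifit3, neighbours on chromosome 19, each held 2 matches, Stat2 held 1, and Bst2 held 2 that overlap each other. The stretches that carry the matches are given here because these are the genes of the set whose windows hold the element. Each is read 5′ to 3′ on the strand of its gene, with the ISRE matches in capitals.
Ifit1, chr19:34640765-34640833, plus strand: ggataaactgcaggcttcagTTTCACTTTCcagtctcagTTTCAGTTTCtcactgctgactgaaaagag
Ifit3, chr19:34583353-34583436, plus strand: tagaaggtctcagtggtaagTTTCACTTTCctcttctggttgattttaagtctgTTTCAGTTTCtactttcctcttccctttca
Stat2, chr10:128270256-128270305, plus strand: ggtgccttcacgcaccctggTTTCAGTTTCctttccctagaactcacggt
Bst2, chr8:71537567-71537622, minus strand: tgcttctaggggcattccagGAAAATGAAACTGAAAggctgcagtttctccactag

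The Ifit matches began 104 and 85 bases before the start of Ifit1 and 156 and 122 bases before that of Ifit3, with the same pair of ten-letter cores in the same order. The Stat2 match began 222 bases before the start, and those of Bst2 130 and 124 bases before. The GAS core, searched as TTCNNNGAA, which reads the same on both strands, was present in the windows of Psmb8 (97 bases before the start) and Bst2 (136 bases before, overlapping its first ISRE match), against 8.30% of all windows. No match to either element lay in the windows of Irf7, Tap1 or Psmb9, which says only that these letters are not in these windows. Tap1 and Psmb9 lie head to head on chromosome 17 with their starts 226 bases apart, so that 275 bases of their windows are the same DNA read in opposite directions. The 225 bases between both starts, chr17:34187331-34187555 on the plus strand, which is the strand of Tap1, are given because the pair share them.
Tap1 and Psmb9, between their starts: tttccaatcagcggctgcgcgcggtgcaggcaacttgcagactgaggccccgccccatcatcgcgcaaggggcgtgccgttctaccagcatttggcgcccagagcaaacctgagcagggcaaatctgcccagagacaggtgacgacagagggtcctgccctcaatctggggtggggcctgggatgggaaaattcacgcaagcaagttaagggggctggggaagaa

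**Figure D1:**
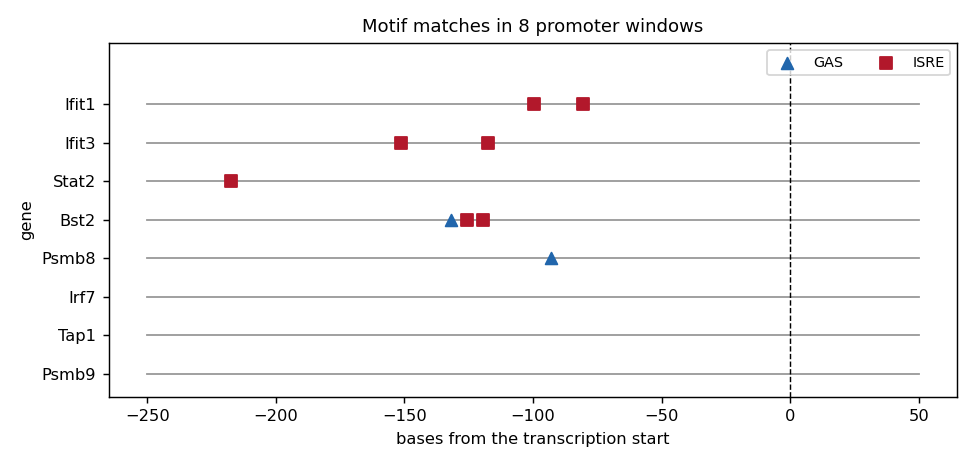
Positions of ISRE (red squares) and GAS (blue triangles) matches in the promoter windows of 8 genes, in bases from the transcription start (dashed line), each mark at the middle of its match. Ifit1, Ifit3, Stat2 and Bst2 hold ISRE matches, Bst2 and Psmb8 a GAS match, and Irf7, Tap1 and Psmb9 neither.

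The plain picture across diets was one of low values in cHF+F muscle. All 7 genes with a kept probe had a lower mean in cHF+F than in cHF, from a log2 change of -0.50 for Rtp4 to -0.07 for Psmb8, with a median of -0.18 beside 0.00063 over all probes, of which 49.6% were lower. This is the comparison on which the set was selected, in which 4.0% of all probes were lower and 2.85% higher at an unadjusted p under 0.05, and nothing is read from the 7 of 7. The antiviral genes Rtp4 and Ifit3 had the largest differences, the immunoproteasome subunits the smallest.

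Rtp4 (probe at chr16:23528931-23528990 in the array design's build mm8) ran from -0.12 over a median of 0.13 to 0.34 in cHF. It ran from -0.41 over -0.08 to -0.01 in cHF+ROSI, and from -0.74 over -0.45 to 0.10 in cHF+F. Of the 8 cHF+F mice, 7 lay under the lowest cHF mouse, and the remaining one, cHF+F mouse 8, lay within the cHF range. All 8 cHF+ROSI mice lay under the cHF mean, and 3 of them under the lowest cHF mouse. The order of the means was cHF (0.11 ± 0.16, SD, n = 8), cHF+ROSI (-0.15 ± 0.16) and cHF+F (-0.40 ± 0.27), in which each neighbouring pair of groups overlapped.

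The log2 change of Rtp4 was -0.50 ± 0.10 (SE) in cHF+F against cHF, a level 1.42 times lower. Within slides, where mice of the same slide were compared, 7 of 8 cHF+F mice were lower than the cHF mouse beside them, with differences from -0.97 to 0.12. In cHF+ROSI against cHF the change was -0.26 ± 0.10, lower on 7 of 8 slides. This did not pass the test over all probes (limma, unadjusted p 0.0122, adjusted p 0.996). In cHF+F against cHF+ROSI it was -0.24 ± 0.10, again lower on 7 of 8 slides and short of the threshold (limma, unadjusted p 0.0186, adjusted p 0.689). Both of these comparisons share 8 arrays with the one on which the set was chosen. The place of cHF+ROSI between the other diets moved with the processing. From the Cy5 signal alone, without the Cy3 pool and the loess step, Rtp4 was lower by -0.58 in cHF+F and -0.57 in cHF+ROSI than in cHF, a difference of -0.0049 between them. The difference between the supplements was -0.14 without background correction and -0.16 on slides 4 to 8, and the cause was not tested. Without cHF+ROSI mouse 4, the brightest array, the Rtp4 change in cHF+ROSI was -0.22.

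**Figure D2:**
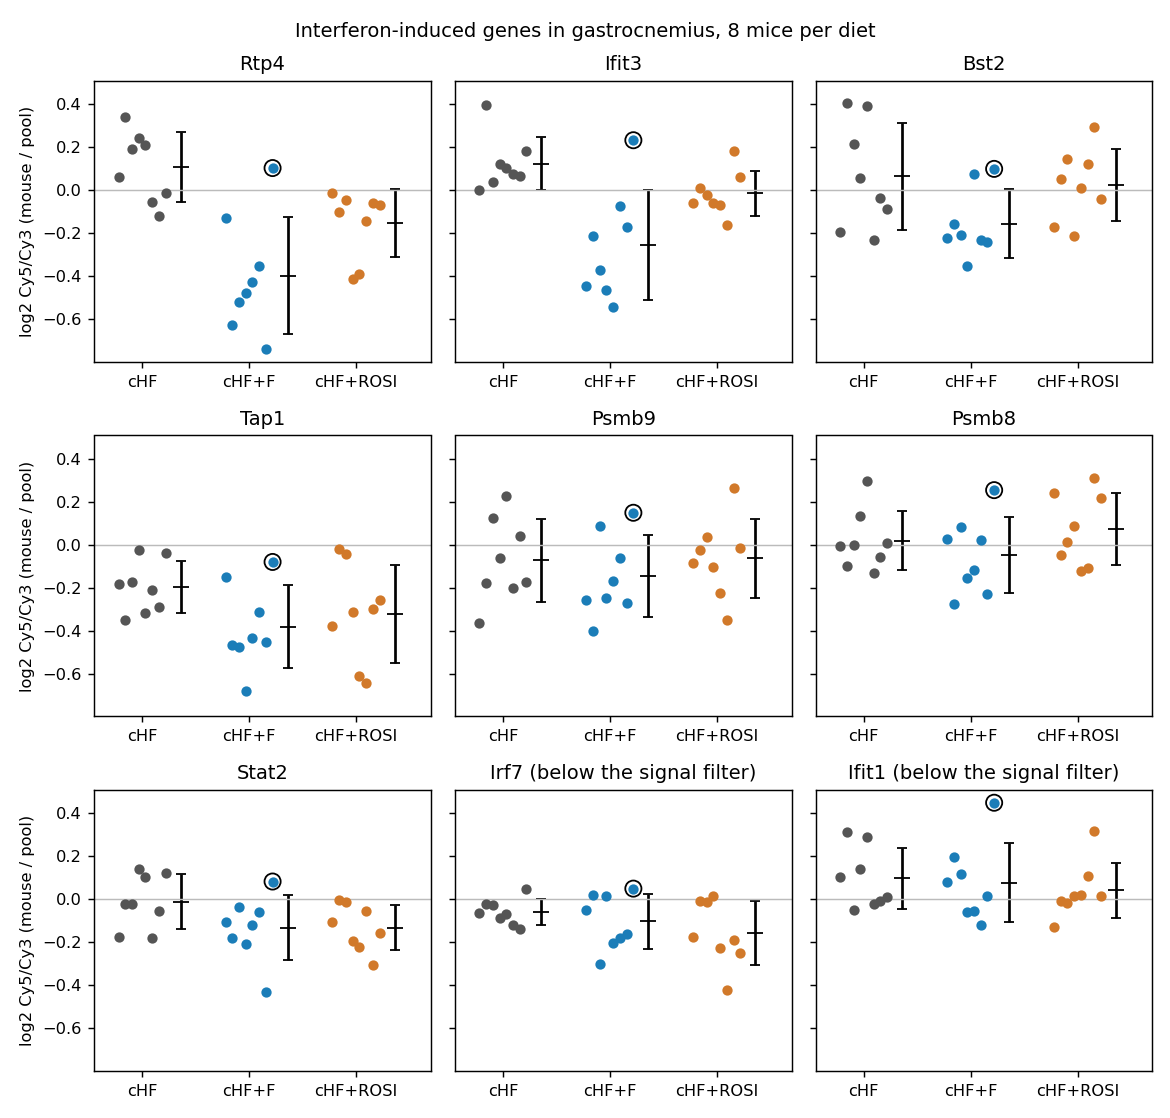
Log2 Cy5/Cy3 of each mouse (dots, in the order of the slides from left to right within a diet) for the 9 genes, with the group mean and SD beside them (black). The circled dot is cHF+F mouse 8, the highest of its group in all 9 panels, and the other 7 cHF+F mice lie below every cHF mouse for Rtp4.

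Ifit3 (chr19:34654612-34654671) is an antiviral protein that acts in a complex with IFIT1. Its values ran from 0.00 over 0.09 to 0.40 in cHF, from -0.16 over -0.04 to 0.18 in cHF+ROSI and from -0.54 over -0.29 to 0.23 in cHF+F. Again 7 of 8 cHF+F mice lay under every cHF mouse, with cHF+F mouse 8 the exception, and 5 of 8 cHF+ROSI mice did so. The means were 0.12 ± 0.12 (SD, n = 8), -0.01 ± 0.10 and -0.26 ± 0.26 in cHF, cHF+ROSI and cHF+F.

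The log2 change of Ifit3 was -0.38 ± 0.08 (SE) in cHF+F against cHF, 1.30 times lower, with 7 of 8 slides lower. It was -0.14 ± 0.08 in cHF+ROSI against cHF (limma, unadjusted p 0.114, adjusted p 0.996). Between the supplements it was -0.24 ± 0.08, lower in cHF+F on 6 of 8 slides (limma, unadjusted p 0.00794, adjusted p 0.635). Mouse has a closely similar neighbouring gene, Ifit3b, and whether the probe also reads it was not tested.

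Bst2 (chr8:74463693-74463752) had the brightest probe of the set, with a Cy5 signal 36.1 times the local background. It ran from -0.23 over 0.01 to 0.41 in cHF, from -0.21 over 0.03 to 0.30 in cHF+ROSI and from -0.35 over -0.21 to 0.10 in cHF+F. The groups overlapped widely, though 7 of 8 slides had the lower value in the cHF+F mouse. The log2 change was -0.22 ± 0.09 (SE) in cHF+F and -0.04 ± 0.09 in cHF+ROSI against cHF (limma, adjusted p 0.996 for the second), and -0.18 ± 0.09 between cHF+F and cHF+ROSI (limma, unadjusted p 0.0642, adjusted p 0.763). With the Cy5 signal alone these values were -0.37, -0.30 and -0.066.

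Tap1 (chr17:33804121-33804180) was the dimmest gene that passed the signal filter, at 2.17 times the background in Cy5 and 2.08 times in Cy3. It was well above background in Cy5 on 5, 6 and 8 arrays of cHF, cHF+F and cHF+ROSI. It ran from -0.35 over -0.19 to -0.02 in cHF, from -0.64 over -0.31 to -0.02 in cHF+ROSI and from -0.68 over -0.44 to -0.08 in cHF+F. Of the cHF+F mice 5 of 8 lay under the lowest cHF mouse, as did 3 of 8 cHF+ROSI mice. The change against cHF was -0.18 ± 0.09 (SE) in cHF+F, lower on 7 of 8 slides, with -0.29 in the deposited normalized table and -0.06 with the Cy5 signal alone, and -0.12 ± 0.09 in cHF+ROSI, lower on 6 of 8 (limma, adjusted p 0.996). Of all probes in the deposited table, 57.9% were lower in cHF+F than in cHF, beside 49.6% on the scale used here. The 2 supplements differed by -0.06 ± 0.09 (limma, adjusted p 0.934), with the sign turned under 4 other ways of processing the signals.

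The immunoproteasome subunits lay close together in all groups. Psmb9 (chr17:33792517-33792576) had means of -0.07 ± 0.19 (SD, n = 8) in cHF, -0.15 ± 0.19 in cHF+F and -0.06 ± 0.18 in cHF+ROSI. Psmb8, on its brighter probe (chr17:33811095-33811419), had means of 0.02 ± 0.14, -0.05 ± 0.18 and 0.07 ± 0.17 in the same order. These differences were within the spread between mice. Psmb8 had a second kept probe next to the first (chr17:33811038-33811097), with a change of -0.07 ± 0.09 (SE) in cHF+F against cHF, as on the first probe (-0.07 ± 0.08).

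The genes of the shared promoter had changes of -0.18 ± 0.09 (SE) for Tap1 and -0.07 ± 0.09 for Psmb9 in cHF+F against cHF, and the difference between them was not tested. For Psmb8 and Psmb9 the direction turned with the Cy5 signal alone, to 0.12 and 0.11 in cHF+F against cHF, and the second Psmb8 probe then stood at -0.25. The 3 constitutive catalytic subunits of the proteasome, Psmb5, Psmb6 and Psmb7, had changes of 0.02, 0.07 and 0.10 in cHF+F.

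Stat2 (chr10:127695074-127695133), the signal carrier that binds the ISRE, had means of -0.01 ± 0.13 (SD, n = 8) in cHF, -0.13 ± 0.15 in cHF+F and -0.13 ± 0.11 in cHF+ROSI. Its changes against cHF were close to equal for both supplements, -0.12 ± 0.07 (SE), and neither the value in cHF+ROSI (limma, unadjusted p 0.0778, adjusted p 0.996) nor the difference between the supplements (-0.00021 ± 0.07, limma adjusted p 0.999) passed the test. With the Cy5 signal alone Stat2 was higher, not lower, in both groups, by 0.12 and 0.14.

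Irf7 and Ifit1 lay under the signal filter through the Cy3 pool, at 1.95 and 1.75 times the background against 2.60 and 2.48 times in Cy5. Irf7 (chr7:141116085-141116435) was nonetheless well above background in Cy5 on all 24 arrays, with means of -0.06 ± 0.06 (SD, n = 8) in cHF, -0.10 ± 0.13 in cHF+F and -0.16 ± 0.15 in cHF+ROSI. Ifit1 (chr19:34715303-34715362) was well above background in Cy5 on 5, 6 and 8 arrays of cHF, cHF+F and cHF+ROSI, with means of 0.10 ± 0.14, 0.08 ± 0.18 and 0.04 ± 0.13. Both sets of groups overlapped. In the deposited normalized table, which kept both probes, the differences of cHF+F from cHF were larger, at -0.25 ± 0.11 (SE) for Irf7 and -0.19 ± 0.10 for Ifit1, against -0.04 and -0.02 on the scale used here. That table was lower in cHF+F over all its probes too, with 57.9% of them lower and a median of -0.025. On the scale used here these were 49.6% and 0.00063.

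The other 2 comparisons each share 8 arrays with the one that chose the set through Rtp4, so a low Rtp4 in them is partly built in. In cHF+ROSI against cHF, 1 of the 7 genes (Rtp4) was lower and none higher at an unadjusted p under 0.05 in limma, where 3.01% of all probes were lower and 1.69% higher. In cHF+F against cHF+ROSI, 2 of 7 (Rtp4 and Ifit3) were lower and none higher, where 2.65% of all probes were lower and 4.02% higher. Without cHF+F mouse 8 the latter count was 4 of 7, with Bst2 (-0.22, limma, unadjusted p 0.0304) and Psmb8 (-0.17, unadjusted p 0.0379) added. In that fit 348 of 15958 probes were lower and 565 higher. Mouse 8 had the highest value of its group on all 10 probes of the set. Leaving it out could only lower the cHF+F means, so nothing is read from this larger count. With the slide as a replicate block the count was 3 of 7, with Bst2 added (limma, unadjusted p 0.0432). The block fit had 866 of 15958 probes lower and 1228 higher. None of the 7 was called over all probes in either comparison, with or without that mouse or the block.

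**Figure D3:**
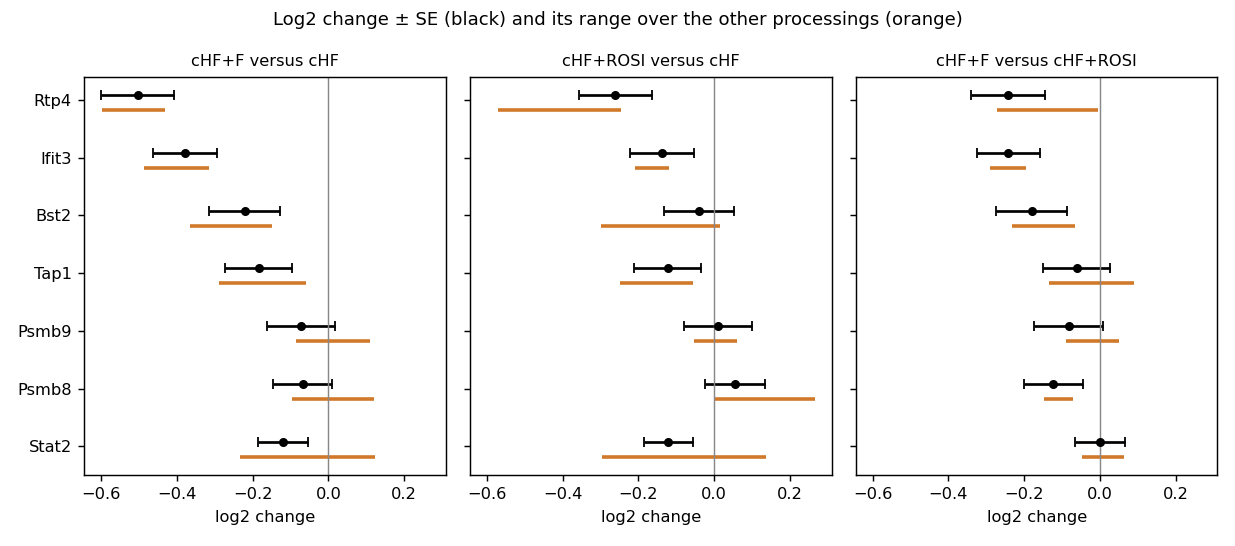
Log2 change of the 7 genes (black dots, bars ± SE) in the 3 comparisons, with the range of the value over the other ways of processing the arrays (orange). Rtp4 and Ifit3 stay below 0 in all 3 panels, while the ranges of the other 5 genes cross 0 in at least 1 panel.

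One mouse stood apart in the 9 genes. Mouse 8 of cHF+F had the highest value of its group on all 10 probes of the 9 genes, among them 0.10 for Rtp4, 0.23 for Ifit3 and 0.45 for Ifit1. No other mouse of any group was highest on more than 6 of 10 (cHF+ROSI mouse 7). Over all kept probes with a value in every mouse of the group, mouse 8 was highest on 12.5%. Among 29 other antiviral genes it was the highest on 12 and the lowest on none, beside cHF mouse 5 with the highest value of its group on 14 and cHF+ROSI mouse 7 on 12. Mouse 8 was the highest on 3 of 15 other genes of antigen processing and on none of 10 macrophage markers.

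Without that mouse the changes in cHF+F against cHF were -0.58 for Rtp4, -0.45 for Ifit3, -0.26 for Bst2 and -0.23 for Tap1. Its array had 55.5% of Cy5 spots well above background, within the range of the other mice of its group. Whether the state of the animal or of its sample was behind these values was not tested.

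To see whether the genes varied together from mouse to mouse, the mean of each diet was taken out and each of the 21 pairs of the 7 genes was correlated over the 24 mice. All 21 Pearson coefficients were above 0, with a median of 0.39, and 4 passed an adjusted p of 0.05 over the 21 pairs (two-sided permutation within diets, 100000 resamples). The immunoproteasome partners Psmb8 and Psmb9 were closest, with r = 0.74 (permutation p 8e-05, adjusted 0.00168) and Spearman's rho = 0.71 (adjusted p 0.00441). Rtp4 was correlated with Psmb8 (r = 0.62, rho = 0.59, adjusted permutation p 0.0235 and 0.0459), with Stat2 (r = 0.59, rho = 0.55, adjusted permutation p 0.0374 and 0.0547) and with Bst2 (r = 0.54, rho = 0.51, adjusted permutation p 0.0374 and 0.0680). Tap1 and Bst2 hardly varied together (r = 0.05, adjusted permutation p 0.821). The pairs with Psmb8 rest on its brighter probe alone. Its 2 kept probes differed in some mice, as in cHF mouse 1 (-0.0039 and -0.46). In others they were alike, as in cHF+ROSI mouse 7 (0.31 and 0.40).

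Leaving out the 2 mice farthest from the median of the first gene gave r = 0.64 for Psmb8 with Psmb9, 0.46 for Rtp4 with Psmb8, 0.35 for Rtp4 with Stat2 and 0.48 for Rtp4 with Bst2. Without cHF+F mouse 8 the pair Psmb8 and Psmb9 alone passed (r = 0.70, adjusted permutation p 0.00714), 19 of 21 coefficients were above 0 and their median was 0.26. With slide means taken out as well, the replicate number being the slide, 4 pairs passed and the median was 0.51, with Rtp4 and Stat2 no longer among them (r = 0.55, adjusted permutation p 0.0816). Psmb8 with Psmb9 then stood at r = 0.93 and Rtp4 with Bst2 at 0.90 (both permutation p 1e-05, the smallest the resamples can give, adjusted 0.000105), followed by Rtp4 with Psmb9 at 0.69 (adjusted permutation p 0.0269) and with Psmb8 at 0.67 (adjusted permutation p 0.0297). Mice of a slide and probes of an array share their hybridisation and their dye correction, and the Cy5 signal alone gave 14 of 21 coefficients above 0 and 1 pair past the threshold.

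**Figure D4:**
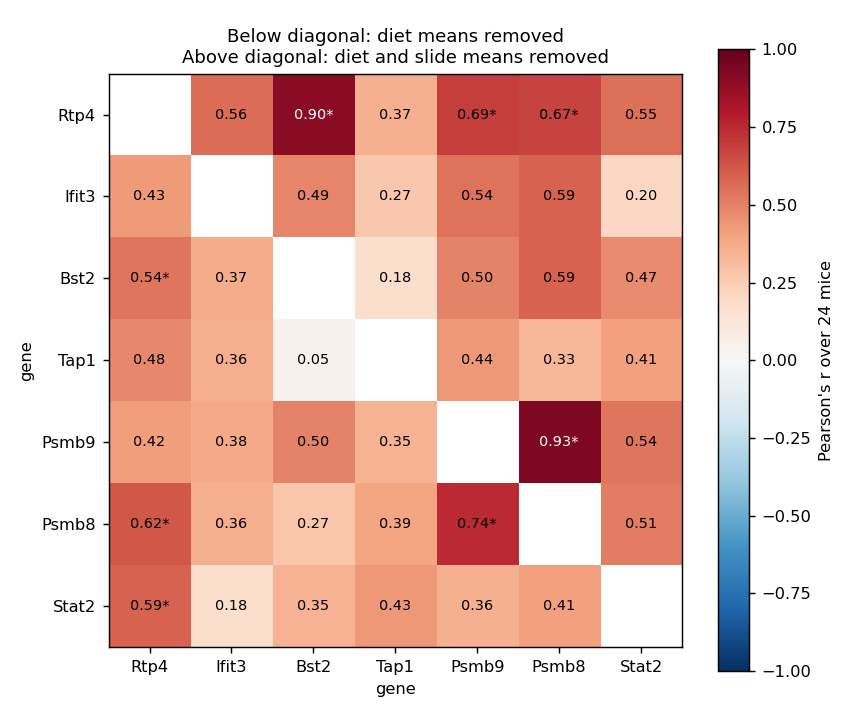
Pearson's r between pairs of the 7 genes over 24 mice, with diet means removed (below the diagonal) and with diet and slide means removed (above). Stars mark an adjusted permutation p under 0.05, and Psmb8 with Psmb9 has the highest r on both sides (0.74 and 0.93).

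The genes whose pattern over the mice was most like that of Rtp4 were then listed, diet means removed, as a description over 24 mice and with no test. Mouse 8 of cHF+F, the highest of its group for Rtp4, was among the 24. Its part in these likenesses was not tested. Of the 10 nearest among 10700 genes, 4 were antiviral effectors: Parp14 (r = 0.76), an ADP-ribosyltransferase, Isg15 (0.72), a ubiquitin-like protein, Iigp1 (0.70), an immunity-related GTPase, and Oasl2 (0.68), of the oligoadenylate synthetase family. The other 6 were A830039N20Rik, Zfp472, Xlr4b, Phtf1, Suv39h1 and Srsf3, with r from 0.66 to 0.69. Over all genes the median r was 0.02 and the 95th percentile 0.37, and the list of 29 other antiviral genes had a median of 0.31, with 10 of them above 0.5.

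Among the members the order of likeness to Rtp4 was Psmb8 (place 20 of 10700), Stat2 (30), Bst2 (69), Tap1 (140), Ifit3 (287) and Psmb9 (326). For Tap1 the 5 nearest genes, Akt1s1 (r = 0.77), Tcirg1, Fxr2, Snx5 and Pth1r (0.73), were in none of the interferon or antigen lists. None of the 50 genes nearest to Tap1 was in these lists, against 12 of the 50 nearest to Rtp4, and Rtp4 itself came at place 254. Tap1 lay near the signal filter, while Rtp4 was well above background in Cy5 on all 8 arrays of each diet. The part of signal strength in this difference was not tested. With slide means also removed, Bst2 was the gene nearest to Rtp4 and Iigp1 the second. Isg15 then came at place 5, Parp14 at 14 and Oasl2 at 106.

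The rest of the pathway was read from lists of genes that are not among the 9. Of 8 interferon ligands and receptors, the 4 receptor chains Ifnar1, Ifnar2, Ifngr1 and Ifngr2 passed the signal filter, and the ligands Ifnb1, Ifna2, Ifna4 and Ifng did not. Their changes in cHF+F against cHF lay between -0.05 and 0.07, and none passed an unadjusted p of 0.05 in any comparison (limma). Of 13 genes of JAK-STAT-IRF signalling, 6 were higher and 7 lower in cHF+F, with a median of -0.03, beside 49.6% of all probes lower. At an unadjusted p under 0.05 in limma, Jak1, a kinase at the receptors, was higher (0.24 ± 0.09, SE, adjusted p 0.562) and Sting1, the sensor of cyclic dinucleotides, lower (-0.19 ± 0.07, adjusted p 0.578). Over all probes 2.85% were higher and 4.0% lower at that p. Socs1, which damps the pathway, stood at -0.30 ± 0.22, and Irf1, a transcription factor induced by interferon-γ, at -0.16 ± 0.08. Irf1 was lower in cHF+F than in cHF+ROSI by -0.31 ± 0.08 (limma, unadjusted p 0.000841, adjusted p 0.434), while Irf8, a factor of myeloid cells, was higher by 0.15 (limma, unadjusted p 0.0189). Against cHF, Jak1 was higher (0.19, limma, unadjusted p 0.0420) and Irf8 lower (-0.13, limma, unadjusted p 0.0379) in cHF+ROSI. Irf8 was named after its values were seen.

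Antiviral effectors made up the largest list. Of 50 genes besides the 9, 29 passed the filter, and in cHF+F against cHF 23 of 29 were lower (median log2 change -0.12, beside 49.6% of all probes lower), 8 of them and none of the higher ones at an unadjusted p under 0.05, beside 4.0% and 2.85% of all probes. In cHF+ROSI against cHF 19 of 29 were lower (median -0.06, beside 54.7% of all probes lower), 6 of them and none of the higher ones at an unadjusted p under 0.05, beside 3.01% and 1.69% of all probes. None was called over all probes (limma). The first comparison is the one on which the set was selected through Rtp4, and the second shares its cHF arrays. With diet means removed, 10 of the 29 had an r above 0.5 with Rtp4. The list was also chosen with earlier results known, so these counts are a description and no independent support. The largest changes in cHF+F were those of Rsad2 (viperin, -0.26 ± 0.09, SE, limma adjusted p 0.488), Oasl2 (-0.23 ± 0.08, adjusted p 0.554), Parp14 (-0.22 ± 0.07, adjusted p 0.470) and Uba7 (-0.21 ± 0.09, adjusted p 0.619), the activating enzyme for Isg15. Their values in cHF+ROSI were -0.14, -0.17, -0.18 and -0.11. The largest change of the list in cHF+ROSI went the other way, 0.52 for Ifi27l2a (limma, unadjusted p 0.0825). Ifi27l2a stood at 0.09 in cHF+F and was named after its values were seen.

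In antigen processing and MHC class I, 15 of 16 genes besides the 9 passed the filter. Of these, 11 were lower in cHF+F against cHF (median -0.03, beside 49.6% of all probes lower). In cHF+ROSI 5 were lower (median 0.04, beside 54.7% of all probes). None in either comparison was at an unadjusted p under 0.05 in limma, each gene read from its brightest kept probe. For the class I gene H2-Q10 that probe stood at 0.13 in cHF+ROSI (limma, unadjusted p 0.286). The study lists H2-Q10 as higher in cHF+ROSI than in cHF on a dimmer probe, which also passed the filter here. The 4 largest changes in cHF+F were 0.11 ± 0.09 (SE) for the chaperone Calr, -0.11 ± 0.10 for tapasin (Tapbp), -0.11 ± 0.06 for the third immunoproteasome subunit Psmb10 and -0.10 ± 0.09 for H2-K1, whose probe may also read other class I genes. In cHF+F against cHF+ROSI, 12 of these 15 genes were lower (median -0.09) and 24 of the 29 antiviral effectors (median -0.05), where 45.8% of all probes were lower. At an unadjusted p under 0.05 in limma, 1 effector was higher and no gene of either list lower, beside 4.02% and 2.65% of all probes. The difference between the lists was not tested.

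**Figure D5:**
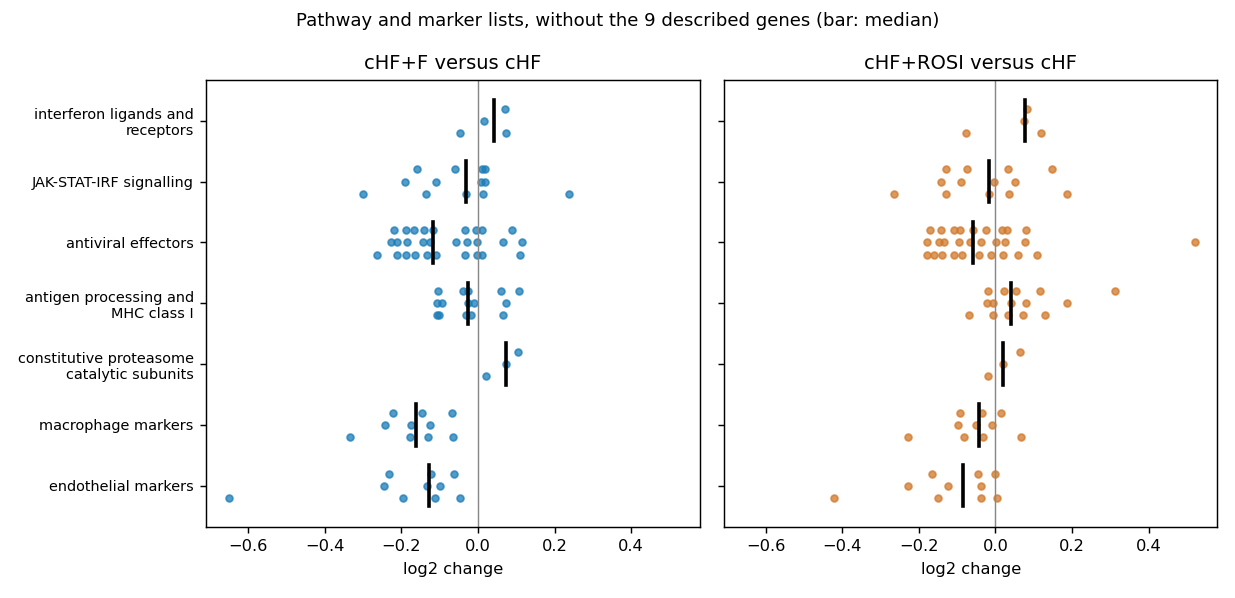
Log2 change of single genes (dots) and list medians (black bars) in cHF+F and cHF+ROSI against cHF, without the 9 described genes. The antiviral effectors have medians of -0.12 and -0.06, and macrophage and endothelial markers lie below 0 in cHF+F throughout.

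Among the marker lists of other cells, those of macrophages and endothelium also had lower means in cHF+F. All 10 macrophage markers were lower in cHF+F than in cHF (median -0.16), 2 of them at an unadjusted p under 0.05 in limma. In cHF+ROSI against cHF, 8 of 10 were lower (median -0.04), none at that p. Their mean level per mouse ran from -0.21 to 0.27 in cHF, from -0.59 to 0.18 in cHF+F and from -0.27 to 0.29 in cHF+ROSI. All 10 endothelial markers were lower as well (median -0.13), 4 of them at that p, and 9 of 10 in cHF+ROSI (median -0.08), 3 at that p. Their mean levels ran from -0.20 to 0.23 in cHF, from -0.29 to -0.03 in cHF+F and from -0.16 to 0.07 in cHF+ROSI. Over all probes 49.6% were lower in cHF+F and 54.7% in cHF+ROSI, with 4.0% and 3.01% lower at an unadjusted p under 0.05. No marker of either list was called. The part of these markers in the low values of the interferon-induced genes was not tested. Over single mice, diet means removed, the median r with Rtp4 was 0.14 for the macrophage and -0.02 for the endothelial markers, none of the 20 above 0.5.

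Of 9 T and NK cell markers none passed the signal filter, and 7 (Cd3d, Cd3g, Cd8a, Gzma, Il2rb, Lck and Nkg7) were well above background in Cy5 on under 12 of 24 arrays. Of 5 B cell markers, Ighm alone passed (-0.49 in cHF+F, -0.27 in cHF+ROSI against cHF). Of 5 markers of plasmacytoid dendritic cells, the main makers of type I interferon, 3 passed, with a median of 0.06 in cHF+F, one of them Cox6a2, which muscle also expresses, while Siglech and Ccr9 were not well above background on most arrays. Of 5 neutrophil markers 1 passed (0.26 in cHF+F). Adipocyte markers (5 of 5 passed) had a median of -0.09 in cHF+F and muscle markers (9 of 9) one of 0.04.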

How the data were processed

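Gastrocnemius RNA of 24 mice (cHF, cHF+F and cHF+ROSI, 8 each) was measured on two-colour Agilent 4x44k arrays. Per the file headers, the deposited scanner files hold spot intensity values quantified by the authors with Feature Extraction 10.5.1.1 (10.5.5.1 per the labels), not normalized between arrays. The deposited normalized table holds log2 expression values of the authors for 19387 probes above 2 times background in 20721 rows, of which the cHF and cHF+F columns served as an alternative and 8 columns of another experiment were not used.

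Median spot signals were background-corrected (normexp, offset 50) and loess-normalized within arrays (span 0.3) with limma 3.58.1 in R 4.3.3. Flagged spots were left out and spots of a probe averaged. Probes with a mean signal of at least 2 times background in both dyes and at least 4 unflagged arrays per group were kept (15958, of which 12624 were named through the accession, 2503 by the file's name and 831 not). One 3-group model was fitted with lmFit and eBayes and p-values were adjusted over all kept probes. A gene was read from its brightest kept probe. Simulated data with known changes tested both the fit and the correlation test. The number of arrays limits the precision.

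The members and gene lists were chosen with earlier results of these data known. Named genes were the 9 members, the 10 genes most like Rtp4 and the 5 most like Tap1 (Pearson's r, diet means removed, at least 20 arrays), and per pathway list the 4 with the largest change in cHF+F against cHF. With 7 of 9 members kept, 21 of 36 planned pairs were tested, by permutation within diets (Python 3.11.15, numpy 2.4.6). Slides are the technical batches: the replicate number is the slide by the file headers. Deviations from group means correlated over 0.1 in 18 of 24 same-slide pairs (median 0.25) and in 39 of 168 other pairs (median -0.05). Alternatives were other background corrections, signals, normalizations, filters, array weights, the slide as a block, the methods' t-test, the authors' table, the mean over a gene's probes and leaving out each array.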

Additional observations from a re-analysis of the deposited data

Results flagged for a closer look

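Among the 30 groups of 8 arrays formed by the 10 probes and 3 diets, 2 held an array whose gap to the others was above Dixon's 95% critical value as a share of the group's range, where chance gives about 1 in 20. In cHF, mouse 2 had an Ifit3 value of 0.40, with the next highest at 0.18. In cHF+ROSI, mouse 7 had a value of 0.40 on the second Psmb8 probe, with the next highest at 0.03, and the brighter Psmb8 probe gave 0.31 in that mouse, again the highest of its group.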

How the results depend on the processing

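The changes of Rtp4 and Ifit3 stayed below 0 in all 3 comparisons under every alternative run, and those of Bst2 and Tap1 did so in cHF+F against cHF. Ranges for Rtp4 were -0.60 to -0.43 in cHF+F against cHF, -0.57 to -0.25 in cHF+ROSI against cHF and -0.27 to -0.0049 between the supplements, and for Tap1 -0.29 to -0.06 in cHF+F against cHF. No member passed an adjusted p of 0.05 in the latter 2 comparisons under any of them. The number of probes called in cHF+F against cHF was 0, and became 2 with mean spot signals, 3 without a filter, 12 with array weights, 6 with the replicate block (the slide) and 0 to 2 on leaving out 1 array each (1 without cHF mouse 8, 2 without cHF+F mouse 8). It stayed at 0 in cHF+ROSI against cHF, and at 0 to 2 between the supplements on leaving out 1 array (1 without cHF+F mouse 7, 2 without cHF+ROSI mouse 7). At unadjusted p, 1094, 750 and 1065 probes passed in limma, and 1265, 755 and 938 in the methods' t-test, of which 0 passed after Benjamini-Hochberg.

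The 4 called pairs became 2 without background correction, 2 with processed signals, 13 with median centring, 1 with Cy5 alone and 1 to 7 on leaving out 1 array (1 without cHF+F mouse 7 or 8, 2 without cHF mouse 6 or cHF+ROSI mouse 3 or 4, and 7 without cHF+ROSI mouse 6), and the replicate block gave 4, 3 of them shared, with Rtp4 and Stat2 lost and Rtp4 and Psmb9 gained. With Cy5 alone, signs turned for Tap1 (0.089) and Psmb9 (0.050) between the supplements and for Stat2 in cHF+ROSI against cHF (0.14). Stat2 and Psmb8 moved to 0.12 each in cHF+F against cHF. Between the supplements, no background correction gave 0.030 for Tap1 and 0.034 for Stat2, processed signals 0.039 and 0.063, slides 4 to 8 (chosen after seeing the data) 0.033 and 0.039, and median centring 0.021 for Stat2. In cHF+ROSI against cHF, array weights gave -0.00085 for Psmb8 and -0.025 for Psmb9, no background correction -0.010 for Psmb9, and slides 4 to 8 -0.053 for Psmb9 and 0.016 for Bst2. Leaving out 1 array gave -0.031 to 0.043 for Stat2 between the supplements, and -0.037 to 0.053 for Psmb9 and -0.083 to 0.0088 for Bst2 in cHF+ROSI against cHF. The causes were not tested. The replicate block changed no call of a member in the latter 2 comparisons. Tap1, Irf7 and Ifit1 lay near the signal filter.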
